A study of Homo sapiens with 13 samples.

Results

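Nicotinic acetylcholine receptors are cation channels opened by acetylcholine and by nicotine, and each channel is assembled from several subunits encoded by separate genes. The members described here were 10 subunit genes, found by symbol among the 56831 genes of each expression table: *CHRNA1*, *CHRNB1* and *CHRNG* of the muscle receptor, *CHRNA3*, *CHRNA5* and *CHRNB4* of the ganglionic receptor, *CHRNA4* and *CHRNB2* of the main brain receptor, and *CHRNA7* and *CHRNA9*, whose products form channels without a beta subunit. All 10 symbols were found in both tables. The muscle receptor combines *CHRNA1* and *CHRNB1* with *CHRND* and with either *CHRNG*, before birth, or *CHRNE*, afterwards. Pulmonary neuroendocrine cells and small cell lung cancer (SCLC) cells are known to carry nicotinic receptors, and common variants at the cluster of *CHRNA5*, *CHRNA3* and *CHRNB4* are linked to smoking and to lung cancer risk.

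RNA was sequenced from H82 and H146, established SCLC cell lines described as wild type for genotype. Untreated H82, untreated H146 and treated H82 had 3 libraries each, and treated H146 had 4. Treated cells received FHD-286, an inhibitor of the SWI/SNF ATPases SMARCA4 and SMARCA2, at 100 nM for 14 days. Untreated cells of the same line were the controls, no vehicle is named for them, and each line is a single model. The study asked how loss of this ATPase activity shifts the neuroendocrine state of SCLC cells, and the comparison here asks what happened to the receptor subunits.

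Levels are in TPM, a transcript abundance for which reads per gene are divided by gene length and scaled to the same sum in each library. Read depth is not in these values, so no counting interval is given. Fold changes come from limma on log2(TPM + 1), two-sided, for every gene that reached 1 TPM in 3 or more libraries of a line. Every adjusted *p* below is from limma, by the Benjamini-Hochberg method across the whole set of tested genes, and a call means a value under 0.05. They understate the change of genes with low levels. The labels do not say that replicates were separate cultures, so the *p* values measure only the spread between these libraries. In bulk RNA, fewer cells with a transcript and less of it per cell cannot be told apart.

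All 6 neuroendocrine markers checked reached 1 TPM in every H82 library and 5 of 6 did in every H146 library. Of those tested, 3 of 6 fell and 1 rose in H82, led by *CHGA* (-2.36) and *INSM1* (2.19), and 2 of 5 fell in H146, led by *DLL3* (-0.60). Over all genes tested, 45.5% fell and 13.1% rose in H82, and 15.5% fell and 32.5% rose in H146. In H82 the marker counts became 3 lower and 3 higher with the median of ratios or without treated replicate 1. *INSM1* was at 1.15 there without treated replicate 2. In the treated H82 group, replicates 1 and 2 stood apart. The median absolute log2 difference over tested genes was 0.458 between replicates 1 and 2 and 0.446 between 1 and 3, against 0.168 between 2 and 3. Treated H146 was also uneven, at 0.120 between replicates 3 and 4, 0.264 between 1 and 2, and 0.298 to 0.467 for the other pairs. Of 114 genes that marked untreated H146 and were near 0 in untreated H82, 50 reached 1 TPM in treated H82 replicate 2, 19 did in replicate 1 and 11 did in replicate 3. Their summed level was 428, 82.4 and 36.7 TPM in these libraries, and 1.13 to 1.34 TPM in untreated H82. Each tested H82 subunit is therefore given with all libraries and without replicate 1 or 2, and the part of these differences in the results was not tested. Genes at 1 TPM or more numbered 21227 to 21772 in untreated and 15554 to 16633 in treated H82 libraries. In H146 they numbered 17476 to 17965 untreated and 18778 to 19309 treated. The part of this wide loss in the falls of low-level genes in H82 was not tested.

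Untreated H82 held the higher subunit level of the 2 lines, with a sum over the 10 genes of 211 to 223 TPM, with *CHRNA1* as its largest part. With FHD-286 this sum was 43.1, 105 and 91.3 TPM in replicates 1, 2 and 3, below every untreated library. Without *CHRNA1*, the sum was 120 to 127 TPM in untreated and 38.2 to 101 TPM in treated H82. In H146 the sum was 42.4 to 49.0 TPM untreated and 63.1, 42.3, 73.5 and 75.1 TPM in treated replicates 1 to 4, so the groups overlapped. The tables of the lines are separate, and levels are set side by side between them with no test.

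**Figure D1:**
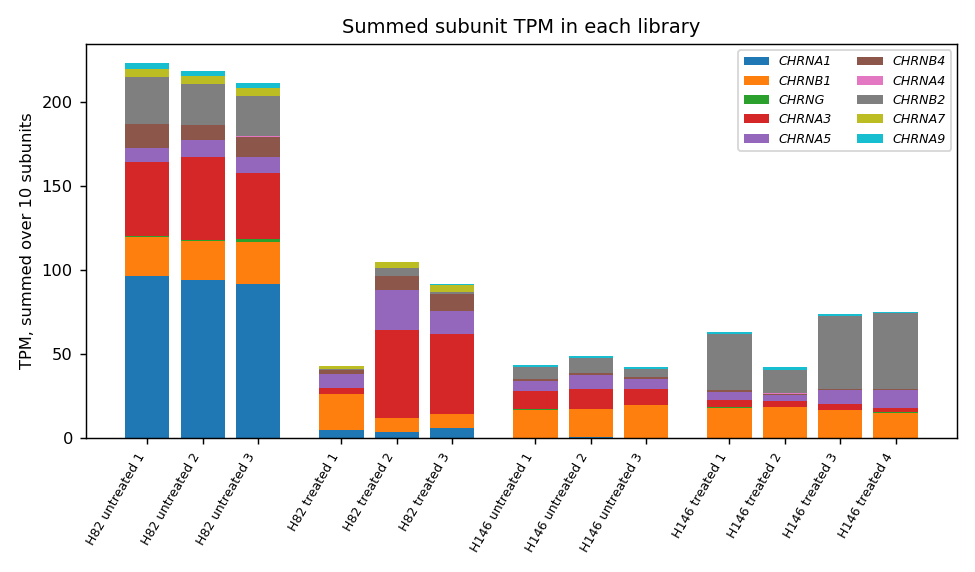
Summed TPM of the 10 subunit genes in each of the 13 libraries, as stacked bars that start at 0, with 1 color per gene. *CHRNA1* fills 43.1% to 43.3% of the untreated H82 bars and 3.74% to 11.4% of the treated ones, while *CHRNB2* fills 10.8% to 18.3% of the untreated H146 bars and 32.0% to 59.8% of the treated ones.

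In untreated H82 the order of mean levels was *CHRNA1* (93.9 ± 2.52 TPM), *CHRNA3* (44.1 ± 4.69), *CHRNB2* (25.5 ± 2.25), *CHRNB1* (23.7 ± 1.11), *CHRNB4* (12.1 ± 2.66), *CHRNA5* (9.04 ± 1.05), *CHRNA7* (4.73 ± 0.221), *CHRNA9* (3.02 ± 0.421), *CHRNG* (1.24 ± 0.49) and *CHRNA4* (0.0656 ± 0.0571), each SD with n = 3. The neighbors *CHRNB2* and *CHRNB1*, and *CHRNB4* and *CHRNA5*, overlapped between libraries, and the other neighbors did not. In treated H82 *CHRNA3* (34.3 ± 26.9 TPM) came first on average, followed by *CHRNA5* (15.5 ± 7.58) and *CHRNB1* (12.4 ± 7.70), and all neighbors down to *CHRNB2* overlapped. In treated replicate 1 *CHRNB1* was the highest of the subunits.

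In untreated H146 the order was *CHRNB1* (17.7 ± 1.46 TPM), *CHRNA3* (10.5 ± 1.19), *CHRNB2* (6.91 ± 2.20), *CHRNA5* (6.78 ± 1.18), *CHRNB4* (1.37 ± 0.262), *CHRNA9* (1.13 ± 0.219) and *CHRNA1* (0.435 ± 0.034), with *CHRNA4*, *CHRNG* and *CHRNA7* lower still. *CHRNB2* and *CHRNA5*, and *CHRNB4* and *CHRNA9*, were not separated in this order. In treated H146 *CHRNB2* (33.6 ± 14.4 TPM, SD, n = 4) had the highest mean, ahead of *CHRNB1* (16.9 ± 1.51), *CHRNA5* (6.87 ± 3.34) and *CHRNA3* (3.31 ± 0.697). *CHRNB2* and *CHRNB1* overlapped there through treated replicate 2.

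**Figure D2:**
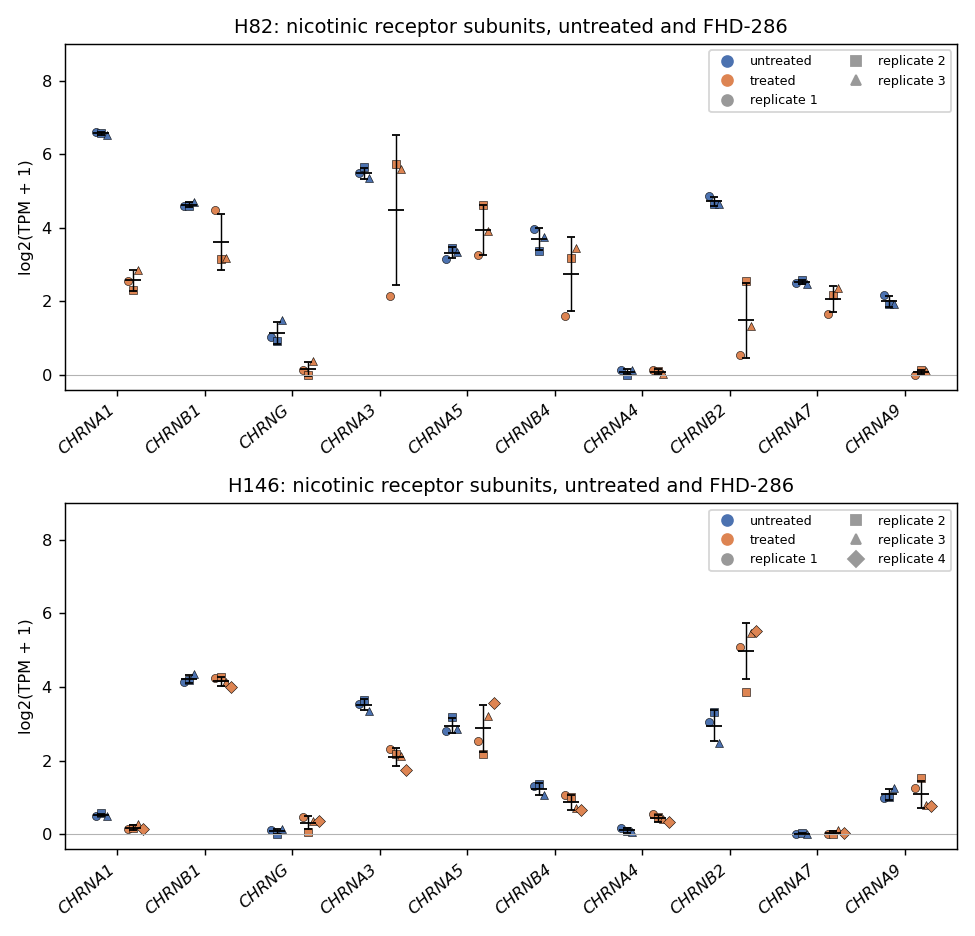
Levels of the 10 subunit genes on the log2(TPM + 1) scale, in H82 above and H146 below, with blue for untreated and orange for treated libraries. Symbols stand for replicate numbers and bars for the mean ± SD. In H82, the treated points of *CHRNA1*, *CHRNA9* and *CHRNB2* lie below all untreated ones, and in H146 those of *CHRNB2* lie above and those of *CHRNA3* below.

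In H82, 8 of the 10 subunits were tested. *CHRNA1*, *CHRNA9*, *CHRNB1* and *CHRNB2* fell and none rose (4 lower and 0 higher). *CHRNA9* reached 1 TPM in the 3 untreated libraries only, so passing the filter already fixed its direction, and its call adds no support to the count. Of all 19770 genes tested in this line, 58.6% passed, 45.5% lower and 13.1% higher. Treated and untreated libraries did not overlap for 5 of the 8 tested subunits, against 67.8% of all genes tested. The median log2 fold change was -1.01 over the 8 subunits and -0.56 over all genes. Called genes were lower in 77.7% of cases in H82 and 32.3% in H146, which became 57.6% and 54.1% with the median of ratios and 52.3% and 46.9% with quantile normalization. With either scaling 3 subunits were lower in H82 and 1 was higher, and in H146 2 were lower and 1 was higher. Without treated replicate 1, 4 subunits were lower and 1, *CHRNA5*, was higher. Without treated replicate 2, 3 were lower and 0 higher, since *CHRNB1* did not pass. In H146, 6 of 10 subunits were tested, and *CHRNB2* rose and *CHRNA3* fell (1 higher and 1 lower). Over all 19585 genes tested there, 47.9% passed, 32.5% higher and 15.5% lower, and groups did not overlap for 2 of the 6 subunits, against 52.9% of all genes. The median log2 fold change was -0.07 over the 6 subunits and 0.25 over all genes.

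**Figure D3:**
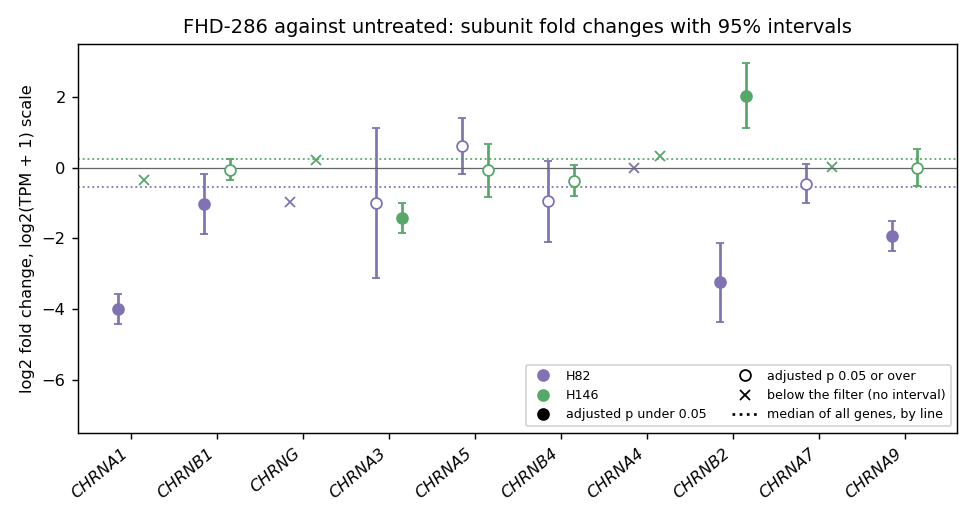
Log2 fold change of each subunit under FHD-286 in H82 (purple) and H146 (green), with 95% intervals. Filled circles passed the threshold, open circles did not, crosses are subunits below the filter and have no interval, and dotted lines mark the median over all genes of a line. The H82 and H146 points of *CHRNB2* lie on opposite sides of 0, at -3.25 and 2.04.

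Among the muscle-type subunits, *CHRNA1*, which binds acetylcholine in the muscle receptor, fell in H82. Its levels were 96.4, 93.9 and 91.3 TPM in untreated and 4.90, 3.92 and 6.23 TPM in treated replicates 1, 2 and 3. Every treated library was far below every untreated one, and the mean was 18.7-fold lower. On the log2 scale the change was -4.00 (SE 0.18, adjusted *p* = 5.75e-05), -3.99 without treated replicate 1 and -3.86 without treated replicate 2. In H146 *CHRNA1* was barely present, at 0.417, 0.474 and 0.414 TPM untreated and 0.0905, 0.132, 0.199 and 0.103 TPM treated, and was below the filter. The treated libraries were again all lower (exact two-sided permutation test, *p* = 0.0286, which is the lowest that 3 against 4 libraries can reach). The fall was larger in H82 than in H146 by 3.65 on the log2 scale (interaction of line and treatment in limma, adjusted *p* = 2.71e-07). Here 60.2% of the 23676 genes tested for the interaction passed. The log2(TPM + 1) scale limits how far a gene can fall from a level below 1 TPM, as *CHRNA1* had in H146. By the ratio of mean TPM, its log2 changes were -4.23 in H82 and -1.73 in H146.

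*CHRNB1*, the beta subunit of the muscle receptor, was also present in both lines. In H82 it was at 23, 23.1 and 25 TPM untreated and at 21.3, 7.95 and 8.04 TPM treated. Treated replicate 1 was only slightly below the untreated libraries, whereas replicates 2 and 3 were near 8 TPM. In limma the log2 change was -1.02 (SE 0.36, adjusted *p* = 0.0434), -1.46 without treated replicate 1 (adjusted *p* = 0.00019) and -0.80 without treated replicate 2 (adjusted *p* = 0.123). Of the 6 H82 libraries, leaving out any but treated replicate 1 ended the call (adjusted *p* from 0.0995 to 0.123). It was also lost when libraries were scaled by the median of ratios (-0.56, adjusted *p* = 0.256), by quantile normalization (-0.50, adjusted *p* = 0.268) and with no filter (adjusted *p* = 0.0787). In H146 *CHRNB1* was at 16.6 to 19.4 TPM untreated and 15 to 18.3 TPM treated, with a log2 fold change of -0.06 (95% interval -0.36 to 0.24, adjusted *p* = 0.722). H82 minus H146 was -0.96 (adjusted *p* = 0.0444) and did not pass without treated H82 replicate 2 (-0.74, adjusted *p* = 0.111), nor when any other library was left out (adjusted *p* up to 0.111) except treated H82 replicate 1 and treated H146 replicate 4.

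*CHRNG*, the subunit of the fetal muscle receptor, lies beside *CHRND* on chromosome 2. It was at 1.03, 0.893 and 1.80 TPM in untreated H82 and at 0.0908, 0 and 0.293 TPM in treated H82. The treated libraries were all lower, but the gene was below the filter, and the exact permutation test gave *p* = 0.1, the lowest that 3 against 3 libraries can reach. With no filter its log2 fold change was -0.98 (adjusted *p* = 0.0188). In H146 it was at or below 0.10 TPM untreated and at 0.0407 to 0.378 TPM treated, and the groups overlapped (exact permutation *p* = 0.114).

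*CHRND* and *CHRNE*, the remaining subunits of the muscle receptor, were also lower in treated H82. *CHRND*, which completes the receptor, was at 6.0, 4.31 and 7.39 TPM untreated and 0.305, 0.310 and 0.0814 TPM treated (log2 fold change -2.47, adjusted *p* = 0.000305). *CHRNE*, the subunit of the adult receptor, was at 3.10 to 3.63 TPM untreated and 0.158 to 0.950 TPM treated (log2 fold change -1.53, adjusted *p* = 0.00177, and -0.61, adjusted *p* = 0.0736, with quantile normalization). With *CHRNA10*, the partner of *CHRNA9*, these made up the tested genes among the 6 nicotinic subunits outside the members, and they were called lower in H82. In H146 only *CHRNA2* of these 6 was tested, at 2.19 to 3.03 TPM untreated and at or below 0.403 TPM treated (log2 fold change -1.58, adjusted *p* = 0.000424). These genes passed the filter through the untreated libraries alone. So did *MYOD1*, *MYH8*, *MUSK*, *RIC3*, *SLC44A4*, *GABRR3* and *GLRA1* in H82, and *GLRA4* in H146. The direction of all these genes was thus fixed by the filter, and no count of them is support.

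Skeletal muscle markers were examined because muscle-type subunits are typical of that tissue. Of 11 markers, 5 to 7 reached 1 TPM in untreated H82 libraries, with a summed level of 65.8 to 89.5 TPM, and 3 or 4 did in treated ones, with sums of 13, 131 and 23.8 TPM. *MYOD1*, the muscle-determining transcription factor, was at 7.5 to 7.88 TPM untreated and 0.531 to 0.991 TPM treated (log2 fold change -2.33, adjusted *p* = 0.000202). Of the 6 markers tested, 4 fell and 1 rose, against 45.5% and 13.1% of all genes tested, and the median log2 fold change was -1.98. The other tested marker, *DES*, did not pass (-1.65, adjusted *p* = 0.12). It was at 9.39 to 16.8 TPM untreated and at 0.533, 16.1 and 2.43 TPM in treated replicates 1, 2 and 3. The creatine kinase gene *CKM* fell most (-2.42), while *ACTC1*, a sarcomeric actin, rose (3.16, or 4.33 without treated replicate 1 and 1.84 without treated replicate 2) and accounted for 101 TPM of treated replicate 2. The factor *MYF5* was listed at 0 in all H82 libraries, and *MYOG*, chosen after its values were seen, was at 0.509 to 1.0 TPM untreated and at or below 0.167 TPM treated. The part of these markers in the subunit results was not tested.

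In H146 the summed level of the 11 muscle markers was 4.80 to 5.82 TPM untreated and 8.94 to 11.0 TPM treated. Both tested markers rose, *CKM* by 0.79 and *MYH3*, an embryonic myosin, by 0.84 (adjusted *p* = 0.00634 and 0.0142). Of all genes tested in H146, 32.5% rose. *MYH3* reached 1 TPM in treated H146 libraries only, so passing the filter fixed its direction, and its rise adds no support to the count. *MYOD1* was at 0.268 to 0.746 TPM untreated and at or below 0.111 TPM treated, below the filter.

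Among 5 genes that cluster the receptor at the neuromuscular junction, 3 were tested in H82, where 45.5% of all genes tested fell, and 1 fell. This was *MUSK*, the receptor kinase for agrin signals, with a log2 fold change of -1.32 (adjusted *p* = 0.00216). In H146, 2 of 3 fell, against 15.5% of all genes tested, led by *DOK7*, an activator of that kinase (-3.09, adjusted *p* = 1.37e-05). *RAPSN*, which anchors the receptor and was chosen after its values were seen, was at 0.676 to 1.71 TPM in untreated and at or below 0.133 TPM in treated H82, below the filter.

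**Figure D4:**
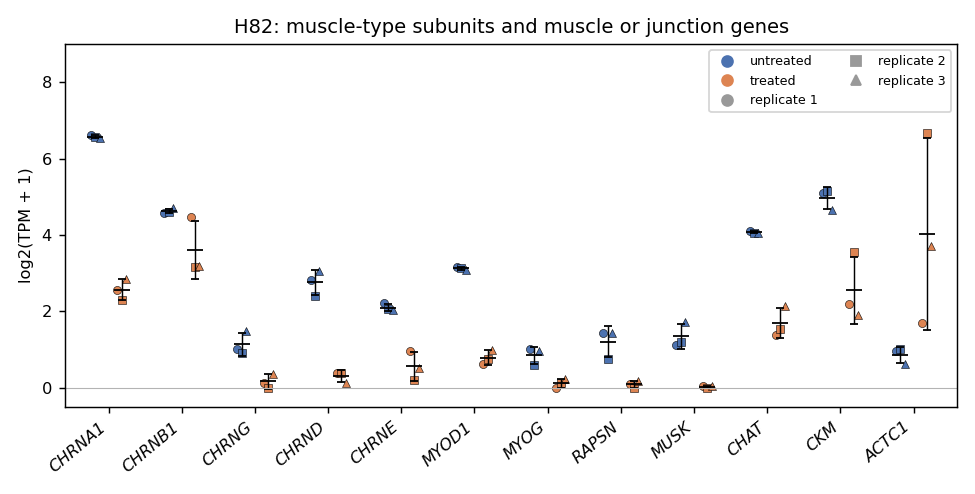
Levels in H82 of muscle-type subunits, junction genes, muscle markers and *CHAT* on the log2(TPM + 1) scale, with symbols for replicate numbers and bars for the mean ± SD. Of the genes plotted, all but *ACTC1* have every treated point below the untreated ones. *CHRNB1* in treated replicate 1 lies close to the untreated libraries, and *ACTC1* is highest in treated replicate 2. The muscle markers and junction genes plotted are a selection from their lists. Of those left out, *DES*, *TNNI1*, *AGRN*, *LRP4* and *DOK7* overlapped between the groups in H82. *MYF6*, *MYH3*, *MYH8* and *TNNT3* did not overlap, and *MYF5* was at 0.

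Short sequences around the promoters are shown because the muscle-type subunits are textbook targets of factors such as *MYOD1*, which bind E-boxes. RefSeq windows (assembly GRCh38.p14, 250 bases before to 50 after a gene start) were found for 7 of the 10 members, all but *CHRNA4*, *CHRNA5* and *CHRNG*. The E-box letters CAGCTG, searched on both strands and equal to their own reverse complement, were in 2 of these 7 and in 17.95% of all 35116 windows. The letters CAGATG, also searched on both strands, were in 1 of 7 and in 14.7% of all windows. The 3 matches are printed with the E-box in capitals, on the strand of the gene, at chr2:174764530-174764559 (minus strand), chr15:78641426-78641455 (minus strand) and chr17:7444937-7444966 (plus strand). In *CHRNB1* the match is on the opposite strand and so reads CATCTG.
CHRNA1: ctgagggcagccCAGCTGtcgctcccacaa
CHRNB4: gctcagtctcccCAGCTGtaccaagggtgc
CHRNB1: agtgctgtctgtCATCTGtcggtggcgggc
*CHRNA1* fell in H82 and *CHRNB4* did not pass the test there. *CHRNB1* was called lower in H82 (-1.02 in limma, adjusted *p* = 0.0434), a call that several alternatives ended. These matches are a description of the letters only.

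*CHRNB2*, the beta subunit that pairs with *CHRNA4* in the brain, moved in opposite directions in the 2 lines. In H82 it was at 28.1, 24.2 and 24.2 TPM untreated and at 0.466, 4.92 and 1.49 TPM in treated replicates 1, 2 and 3. Every treated library was lower, and replicate 2 was the highest of them. The mean was 11.1-fold lower, with a log2 fold change of -3.25 (SE 0.47, adjusted *p* = 0.0013), -2.78 without treated replicate 1 and -3.79 without treated replicate 2. Treated H82 replicate 2 was also the library with the highest level of H146 line markers, as given above, and their part in its *CHRNB2* level was not tested.

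In H146 *CHRNB2* was at 7.22, 8.94 and 4.58 TPM untreated and at 32.8, 13.5, 43.2 and 45.0 TPM in treated replicates 1 to 4. Every treated library was higher, and replicate 2 was at least 1 log2 unit below the other 3, as were 1.80% of all genes tested. The mean was 4.86-fold higher, with a log2 fold change of 2.04 (SE 0.40, adjusted *p* = 0.00401), and 2.41 without treated replicate 2. The fold changes of the lines differed by -5.28 (SE 0.67, interaction in limma, adjusted *p* = 3.89e-05), or by -5.83 without treated H82 replicate 2 and -4.82 without replicate 1.

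Among the members, *CHRNB2* alone held the letters searched here for a complete site of REST, the repressor of neuronal genes that the study follows. Complete sites with other letters were not searched, and REST binding was not measured. The left and right parts of the REST site, TTCAGCACC and GGACAG in this order with 2 free bases between them, were searched on both strands of hg38 and found 251 times. Of 20033 protein-coding genes, 16 (0.0799%) held such a site within 500 bases of the gene start, and 1 of the 10 members did. The site begins 177 bases into *CHRNB2* (chromosome 1, 154567778 to 154580013, plus strand) and lies in the 5′ UTR part of exon 1. It is shown in capitals within chr1:154567948-154567977, plus strand.
CHRNB2: cgcggcTTCAGCACCACGGACAGcgcccca
This search was made after the promoter windows, in which no member held the left part on its own, had been seen. The left part, TTCAGCACC, was in 0.376% of all windows. The right part, GGACAG, was in 20.55% of all windows and in those of *CHRNA3*, *CHRNB4* and *CHRNB1*.

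*REST* itself, named for this site after its values were seen, was at 7.46 to 8.64 TPM in untreated and 7.74 to 10.4 TPM in treated H82, where *CHRNB2* fell. In limma the log2 fold change of *REST* in H82 was 0.15 (adjusted *p* = 0.498). *REST* passed there as higher with the median of ratios (0.59, adjusted *p* = 0.0245) and with quantile normalization (0.88, adjusted *p* = 0.00518). In H146, where *CHRNB2* rose, *REST* was at 0.168 to 0.254 TPM untreated and 0.520 to 1.41 TPM treated. These levels sum all isoforms of the gene as counted.

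*CHRNA4*, the alpha partner of *CHRNB2*, stayed low in both lines. It was at 0.104, 0 and 0.0926 TPM in untreated and 0.0973, 0.0754 and 0.0115 TPM in treated H82, and the groups overlapped (exact permutation *p* = 0.9). Its levels in H146 were 0.131, 0.0521 and 0.0316 TPM untreated and 0.457, 0.376, 0.340 and 0.245 TPM treated. All treated H146 libraries were higher (exact permutation *p* = 0.0286), at levels below the filter. In treated H146 the mean of *CHRNB2* was 33.6 TPM and that of *CHRNA4* 0.354 TPM.

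The ganglionic subunits *CHRNA5*, *CHRNA3* and *CHRNB4* lie next to each other on chromosome 15, from 78565520 to 78727754 in hg38, a span of 162.2 kb. *CHRNA5* is on the plus strand and the other 2 on the minus strand. *CHRNA3* and *CHRNA5* overlap by 2218 bases at their ends, and since the strand setting of the counting is not given in the sources used here, reads from that stretch cannot be assigned with certainty. Their summed level was 61.1 to 68.2 TPM in untreated H82 and 14.1, 84.2 and 71.1 TPM in treated replicates 1, 2 and 3. In H146 it was 16.5 to 21.3 TPM untreated and 8.09 to 13.8 TPM treated.

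*CHRNA3*, the ligand-binding subunit of the ganglionic receptor, was far lower in 1 treated H82 library than in the others. It was at 43.8, 48.9 and 39.6 TPM untreated and at 3.41, 52.5 and 47.1 TPM in treated replicates 1, 2 and 3. Replicate 1 was below all other libraries, and replicates 2 and 3 were at the untreated level. A gap of at least 2 log2 units below both other treated libraries was seen in replicate 1 for 0.207% of the genes tested. Its log2 fold change was -1.0 (95% interval -3.13 to 1.13, adjusted *p* = 0.372), 0.17 without treated replicate 1 (adjusted *p* = 0.21) and -1.63 without treated replicate 2 (adjusted *p* = 0.18), so the direction in H82 rests on replicate 1.

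In H146 *CHRNA3* was at 10.7, 11.6 and 9.23 TPM untreated and at 4.01, 3.53, 3.35 and 2.35 TPM treated. All treated libraries were lower and close to each other, and the mean was 3.17-fold lower. The log2 fold change was -1.43 (SE 0.18, adjusted *p* = 0.000555) and lay between -1.69 and -1.31 over 17 alternatives, all past the threshold where a test was run. The lines differed by 0.43 (95% interval -1.62 to 2.47, adjusted *p* = 0.714), and 1.60 (adjusted *p* = 0.000156) without treated H82 replicate 1.

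*CHRNB4*, the beta subunit of the ganglionic receptor, was at 14.6, 9.28 and 12.4 TPM in untreated and 2.02, 8.06 and 9.87 TPM in treated H82. Replicate 1 was again the lowest treated library, and replicate 3 overlapped the untreated ones. On the log2 scale the change was -0.95 (95% interval -2.09 to 0.19, adjusted *p* = 0.13), -0.38 without treated replicate 1 and -1.17 without treated replicate 2, none past the threshold. In H146 *CHRNB4* was at 1.07 to 1.56 TPM untreated and at 1.10, 1.03, 0.625 and 0.583 TPM in treated replicates 1 to 4. *CHRNB4* had a log2 fold change of -0.37 there (95% interval -0.81 to 0.06, adjusted *p* = 0.138). It passed in H146 with scaling by the median of ratios (-0.53, adjusted *p* = 0.0449), by quantile normalization (-0.60, adjusted *p* = 0.0228) and with library weights (-0.56, adjusted *p* = 0.0056). Its fold change in H82 minus that in H146 was -0.58 (95% interval -1.72 to 0.56, adjusted *p* = 0.36).

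*CHRNA5*, an accessory subunit that alters the conductance of receptors it joins, overlapped between the groups in both lines. In H82 it was at 7.94, 10.0 and 9.15 TPM untreated and at 8.64, 23.6 and 14.2 TPM treated. Replicates 2 and 3 were above all untreated libraries and replicate 1 was among them. In limma the log2 change was 0.62 (95% interval -0.18 to 1.41, adjusted *p* = 0.154), 0.95 without treated replicate 1 (adjusted *p* = 0.0113) and 0.27 without treated replicate 2 (adjusted *p* = 0.411). It also passed with the median of ratios (1.06, adjusted *p* = 0.0266) with quantile normalization (1.24, adjusted *p* = 0.011) and with library weights (0.96, adjusted *p* = 0.00529).

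In H146 *CHRNA5* was at 5.97 to 8.13 TPM untreated and at 4.79, 3.53, 8.26 and 10.9 TPM treated, on either side of the untreated libraries. Its log2 fold change was -0.08 (95% interval -0.82 to 0.67, adjusted *p* = 0.863), and H82 and H146 differed by 0.69 (95% interval -0.40 to 1.79, adjusted *p* = 0.254). This difference passed with quantile normalization (1.59, adjusted *p* = 0.0127) and with the median of ratios (1.42, adjusted *p* = 0.0216).

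Of the 4 neighboring genes of the cluster in the tables, 3 were tested in H82. *IREB2*, an iron-responsive RNA-binding protein, fell in H82, by 0.71 on the log2 scale (adjusted *p* = 0.0113), whereas it rose in H146 (1.35, adjusted *p* = 0.00147). With the median of ratios *IREB2* did not pass in H82 (-0.22, adjusted *p* = 0.235). *PSMA4*, a proteasome subunit, was at 84.2 to 95.7 TPM in untreated H82 and at 87.3, 198 and 196 TPM in treated replicates 1, 2 and 3 (log2 fold change 0.74, adjusted *p* = 0.0845). *PSMA4* passed without treated replicate 1 (1.13, adjusted *p* = 0.000164), with quantile normalization (0.61, adjusted *p* = 0.0393) and with the median of ratios (1.23, adjusted *p* = 0.0106). Its treated replicate 1 was thus also at the untreated level while the other 2 were higher, as for *CHRNA5*. *MORF4L1* was at 0.34 in H82 and 0.24 in H146, and *PSMA4* was at 0.30 in H146, none past the threshold. *MORF4L1* passed in H82 without treated replicate 1 (0.52) and with the median of ratios (0.83). *ADAMTS7* was below the filter in H82 and was at 0.21 in H146, also not past the threshold.

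**Figure D5:**
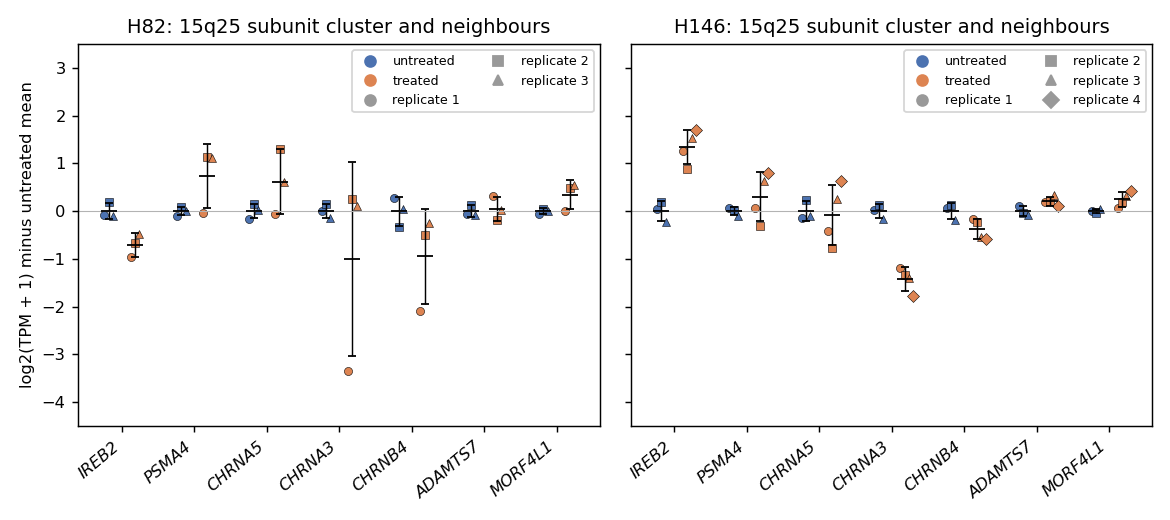
Levels of *CHRNA5*, *CHRNA3*, *CHRNB4* and neighboring genes of chromosome 15 in each library, as log2(TPM + 1) minus the untreated mean of the line, in H82 (left) and H146 (right). Symbols stand for replicate numbers and bars for the mean ± SD. Treated H82 replicate 1 lies well below the other libraries for *CHRNA3* and *CHRNB4*, and all 4 treated H146 points of *CHRNA3* lie below 0.

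*CHRNA7*, which forms receptors on its own, has a nearly identical copy in the fusion gene *CHRFAM7A*, and its reads may be split between the copies. It was at 4.66, 4.98 and 4.56 TPM in untreated and 2.17, 3.53 and 4.12 TPM in treated H82, with all treated libraries lower. The log2 fold change was -0.45 (95% interval -1.0 to 0.10, adjusted *p* = 0.136), -0.25 without treated replicate 1 and -0.51 without treated replicate 2, none past the threshold. *CHRFAM7A* was at 11.5, 9.75 and 10.3 TPM untreated and 3.55, 4.16 and 5.63 TPM treated (log2 fold change -1.10, adjusted *p* = 0.00355). Summed, the pair fell by 0.92 on the log2 scale (adjusted *p* = 0.00802). With quantile normalization *CHRNA7* alone was at 0.49 (adjusted *p* = 0.156).

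In H146 *CHRNA7* was at or below 0.0183 TPM untreated and at or below 0.0716 TPM treated, and the groups overlapped (exact permutation *p* = 0.343). For *CHRNA7*, H82 minus H146 was -0.48 (95% interval -0.99 to 0.03, adjusted *p* = 0.0973), and -0.62 without treated H82 replicate 3 (adjusted *p* = 0.0327).

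*CHRNA9*, which pairs with *CHRNA10* in hair cells of the inner ear, was at or near 0 in all treated H82 libraries. It was at 3.51, 2.78 and 2.78 TPM untreated and at 0, 0.0876 and 0.0805 TPM treated. On the log2 scale the change was -1.93 (SE 0.18, adjusted *p* = 0.000297), -1.89 without treated replicate 1 and -1.95 without treated replicate 2. Without any 1 of the untreated H82 libraries the gene did not reach the filter, since only untreated libraries held 1 TPM. *CHRNA10* was at 4.99 to 5.11 TPM untreated and 0.359 to 0.619 TPM treated in H82 (log2 fold change -2.0, adjusted *p* = 0.000264). In H146 *CHRNA9* was at 0.97, 1.03 and 1.38 TPM untreated and at 1.39, 1.88, 0.745 and 0.695 TPM treated, with 2 treated libraries above and 2 below the untreated ones. Its log2 fold change there was 0.00 (95% interval -0.53 to 0.54, adjusted *p* = 0.994), and the fall was larger in H82 by 1.93 (interaction in limma, adjusted *p* = 0.000104).

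In all, the difference between the lines passed for 4 of the 8 subunits tested for it, *CHRNA1*, *CHRNA9*, *CHRNB1* and *CHRNB2*. Each was lower in H82 relative to H146. Over all 23676 genes tested for the difference, 60.2% passed, and 77.3% of those were lower. For *CHRNA9* the call rests on the H82 values that set its passing of the filter there.

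Genes that supply and remove acetylcholine and help build receptors were listed alongside. Beside the counts of this and the next lists stand the shares over all genes tested. These were 45.5% lower and 13.1% higher in H82, and 15.5% lower and 32.5% higher in H146. Of 6 tested genes for acetylcholine synthesis, loading, transport and breakdown in H82, 5 fell and 0 rose, with a median log2 fold change of -0.98. With the median of ratios 3 fell and 1 rose, *SLC44A1* (0.48, adjusted *p* = 0.043), and with quantile normalization 3 fell and 0 rose. *CHAT*, the enzyme that makes acetylcholine, was at 15.6 to 16.1 TPM untreated and 1.59, 1.92 and 3.37 TPM treated (log2 fold change -2.39, adjusted *p* = 0.00033). *CHAT* was at or below 0.0931 TPM in all H146 libraries, where 1 of 4 tested genes of this list rose, the choline transporter *SLC44A1* (0.67, adjusted *p* = 0.0127), and none fell. *SLC44A1* did not pass there with quantile normalization (0.41, adjusted *p* = 0.0513) or the median of ratios (0.38, adjusted *p* = 0.0594).

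Of 5 tested genes for receptor assembly and modulation, 2 fell and 1 rose in H82, against 45.5% and 13.1% of all genes tested. *RIC3*, a chaperone of *CHRNA7* receptors, fell by 1.59 on the log2 scale (adjusted *p* = 0.000749) and *NPTN* rose by 0.70 (adjusted *p* = 0.0195, or 0.0630 without treated replicate 2). In H146, 0 fell and 2 rose, led by *UNC50* (0.58, adjusted *p* = 0.0051), which became 1 lower and 1 higher with quantile normalization and 2 lower and 0 higher with the median of ratios, where *UNC50* was at 0.26 (adjusted *p* = 0.0679). *RIC3* was at 11.2 to 13.8 TPM untreated and 11.3 to 14.1 TPM treated in H146 (adjusted *p* = 0.898).

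Of 6 tested factors described at subunit promoters, 3 fell and 1 rose in H82, and 1 of 5 fell and 2 rose in H146. With the median of ratios or quantile normalization these counts became 2 lower and 2 higher in H82, and 1 and 1 in H146. Over all genes tested, 45.5% fell and 13.1% rose in H82, and 15.5% fell and 32.5% rose in H146. *POU4F1*, a neuronal homeodomain factor, rose in both lines, by 1.19 in H82 (adjusted *p* = 0.00707) and by 1.47 on the same scale in treated H146 (adjusted *p* = 0.00264). In H146 *POU4F1* reached 1 TPM in treated libraries only, so passing the filter fixed its direction there. In H146 *EGR1*, an immediate early factor, rose most (1.57, adjusted *p* = 0.044, lost with quantile normalization at 0.0900 and the median of ratios at 0.0728) and *PHOX2A*, an autonomic neuron factor, fell (-0.98, adjusted *p* = 0.0143). Among other Cys-loop receptor subunits, the wider family of the nicotinic genes, 5 of 11 tested fell and 2 rose in H82, led by *GABRE* (-3.27) and *GABRA2* (1.54). In H146, 3 of 7 fell and 0 rose, led by the serotonin receptor *HTR3A* (-1.58). The share of all genes called lower was 45.5% in H82 and 15.5% in H146. *GABRA2* reached 1 TPM in treated H82 libraries only, so passing the filter fixed its direction. Leaving out treated H82 replicate 1 gave 3 lower and 1 higher of 5 tested genes for assembly and modulation, 4 lower of 6 for acetylcholine, 2 lower of 3 at the junction, 4 lower and 1 higher of 6 muscle markers, and 5 lower and 1 higher of 10 Cys-loop genes. Leaving out replicate 2 gave 2 lower and 0 higher, 5 lower, 1 lower, 5 lower and 1 higher, and 5 lower and 0 higher for the same lists.

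Near *CHRNG* on chromosome 2, 2 of 4 tested neighbors fell in H82, *CHRND* and the protease gene *PRSS56* (-2.21, adjusted *p* = 0.0468). Of all genes tested in H82, 45.5% fell. *PRSS56* was at 9.11 to 12.9 TPM untreated and at 9.70, 0.406 and 0.213 TPM in treated replicates 1, 2 and 3, so replicate 1 lay among the untreated libraries. It was at -3.22 without treated replicate 1 and did not pass without treated replicate 2 (-1.75, adjusted *p* = 0.129), with quantile normalization (-1.44, adjusted *p* = 0.154) or with the median of ratios (-1.85, adjusted *p* = 0.106). *TIGD1*, which overlaps *CHRNG* on the opposite strand over 4233 bases, was at 17.4 to 18.8 TPM untreated and 17.3, 6.82 and 9.67 TPM treated in H82 (log2 fold change -0.72, adjusted *p* = 0.0784, and -1.06, adjusted *p* = 0.00197, without treated replicate 1). In H146 *TIGD1* (0.79, adjusted *p* = 0.00678) and *EIF4E2* (0.53, adjusted *p* = 0.0251) rose, the latter not with quantile normalization (adjusted *p* = 0.0656) or the median of ratios (adjusted *p* = 0.27). In H82 *EIF4E2* was at 0.13 (adjusted *p* = 0.6), and it passed there without treated replicate 1 (0.34, adjusted *p* = 0.00586) and with the median of ratios (0.61, adjusted *p* = 0.0189).

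For the 6 members tested in both lines, the genes with the most similar profiles were ranked by the root mean square difference of log2(TPM + 1) over the 13 libraries, after the untreated mean of each line had been subtracted, among 15678 genes. *CHRNA3* was nearest to *FADS2* (0.404) and *FLNA* (0.592), and *CHRNB2* to *MMP24* (0.335) and *AC073046.25* (0.355). *CHRNB4* was nearest to *SCARB1* (0.203) and *PVR* (0.239), *CHRNA5* to *RRAGA* and *ZWINT* (0.21 each), *CHRNA9* to *PCBP4* (0.153) and *GDPD3* (0.17), and *CHRNB1* to *MTMR9L* (0.129) and *TMEM41B* (0.142). The median over all genes was 1.39 for *CHRNA3*, 1.85 for *CHRNB2* and 0.765 to 0.965 for the other 4. *CHRNB4* ranked 47 in likeness to *CHRNA3* (0.739), and *CHRNA5* ranked 5672. In the reverse direction *CHRNA3* ranked only 5514 in likeness to *CHRNB4*, at the same distance, against a median of 0.846 for *CHRNB4*. These distances are descriptions and carry no test.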

How the data were processed

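The submitters' processing notes name Trim Galore 0.4.4, with no role given. Per the study's methods, STAR mapped reads to hg38 and counted them on GENCODE release 28, and the authors compared groups in DESeq2. The authors deposited 1 table of TPM values for each line. The gene length behind TPM, the strand setting and the read depth are not given in the sources used here.

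Each line was fitted with limma 3.58.1 in R 4.3.3 (eBayes with trend) on log2(TPM + 1), treated against untreated, on genes that reached 1 TPM in 3 or more libraries. The difference between lines was the interaction in 1 fit over 13 libraries. Subunits below the filter were compared by a two-sided exact permutation test of mean log2(TPM + 1). The design assumed TPM values, and a count test was not run.

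Alternatives were a pseudocount of 0.1, no filter, a mean TPM above 2, the median of ratios, quantile normalization, removal of mitochondrial genes, the replicate number as a block, no trend, library weights (statmod 1.5.0 was loaded), the log2 ratio of mean TPM, the sum of *CHRNA7* and *CHRFAM7A*, and each library left out in turn. The scripts were tested on simulated data. Tables were prepared in Python 3.11.15 (pandas 2.3.3, numpy 2.4.6) and plots in matplotlib 3.10.9.

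Genes named are all 10 members, the largest rise and fall among tested genes of each list (given where they passed), *CHRFAM7A*, the *CHRNA5* and *CHRNG* neighbors and the 2 nearest profiles per member, with other names marked as chosen after their values were seen; further subunits of the muscle receptor, *CHRNA10*, *MYOD1*, *MYF5*, *REST*, *RIC3* and *POU4F1* come from these lists and were also named after their values were seen. The members and lists were chosen with earlier results of these data known. Positions came from GENCODE release 44 and promoter windows from RefSeq. Protein sequences were not analysed here.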

Additional observations from a re-analysis of the deposited data

Results flagged for a closer look

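The difference between the fold changes of the 2 lines passed the interaction test in limma for 4 of the 8 subunits tested, against 60.2% of all genes tested. These differences, H82 minus H146 on the log2 scale, were -3.65 for *CHRNA1*, -1.93 for *CHRNA9*, -0.96 for *CHRNB1* and -5.28 for *CHRNB2*. *CHRNB1* passed by a narrow margin (adjusted *p* = 0.0444). In H82 *CHRNA9* passed the filter through its untreated libraries alone.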

How the results depend on the processing

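*CHRNA1* and *CHRNB2* in H82 and *CHRNA3* and *CHRNB2* in H146 stayed past the threshold with the same direction under every alternative tested, with fold changes from -4.23 to -3.55, -3.95 to -2.60, -1.69 to -1.31 and 1.75 to 2.41. *CHRNA9* in H82 did so where it reached the filter (-5.75 to -1.22). The calls of *CHRNB1* in H82 and of its difference between lines were the least stable. TPM keeps no depth, so a level of 0 sets no limit. Where a direction or count changed, the cause was not tested, except that fewer genes are tested with a library left out. The median fold change of all genes was -0.56 in H82 and 0.25 in H146, against -0.05 and 0.06 with quantile normalization and -0.14 and -0.02 with the median of ratios.

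Over all genes, quantile normalization gave 5547 lower and 5067 higher in H82, the median of ratios gave 4793 higher, library weights gave 3975 higher, and leaving out 1 library gave 4291 to 9957 lower and 1676 to 3503 higher (main values 8996 and 2588). In H146 the main 3033 lower and 6356 higher became 4917 and 4165 with the median of ratios, 4806 lower with library weights, and 1812 to 3729 lower without 1 library. For the difference between lines the main 11019 lower and 3235 higher became 6241 and 6092 with quantile normalization and 6192 higher with the median of ratios.

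Of the subunits, 2 to 4 were lower and 0 to 1 higher in H82 without 1 library, and 1 was higher with quantile normalization, the median of ratios or library weights. In H146, 2 were lower with no filter, quantile normalization, library weights or the median of ratios, and 2 were higher with no filter. For the difference between lines 1 was higher with quantile normalization, the median of ratios or library weights, and 0 to 1 without 1 library.

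Changes of sign were all in values that did not pass. In H82, *CHRNA3* was 0.079 with library weights (-1.63 to 0.17 without 1 library) and *CHRNA7* 0.49 with quantile normalization, and *CHRNA4* was 0.025 with the median of ratios (-0.050 to 0.029 without 1 library). In H146, *CHRNA5* was 0.29 with library weights and 0.018 as a log2 ratio of mean TPM (-0.31 to 0.16 without 1 library), *CHRNB1* was -0.10 to 0.0014 without 1 library, and *CHRNA9* was -0.035 with a pseudocount of 0.1, -0.23 with quantile normalization, -0.16 with the median of ratios, -0.0054 without mitochondrial genes and -0.19 with library weights (-0.14 to 0.11 without 1 library). For the difference between lines, *CHRNA7* was 0.51 with quantile normalization, *CHRNB4* 0.30 with quantile normalization and 0.010 with the median of ratios, and *CHRNA3* -0.20 to 1.60 without 1 library, past the threshold without treated H82 replicate 1 and, at 1.51 (adjusted *p* = 0.00648), with library weights.

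Same-numbered libraries did not deviate together (correlations of -0.038 to 0.027 in H82 and -0.111 to 0.011 in H146), so the numbers were not treated as pairs. These correlations cannot show whether the cultures were paired, which the labels do not state. With the replicate number as a block, 8625 genes were lower and 2333 higher in H82 and 2377 and 4749 in H146, the subunit counts of each line did not change (4 and 0, 1 and 1), and the difference of *CHRNB1* was -1.01 (adjusted *p* = 0.0612). Treated H146 replicate 4 shares its number with no untreated library and added nothing to the fold changes of that fit.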
